A study of Mus musculus with 24 samples.

Results

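Transcript levels of 10 innate sensing genes were followed along the mouse intestine, in epithelial cells that did or did not express a guanylin reporter. The genes were listed by name, with earlier results of these data known, and no measured value entered the rule: the Toll-like receptor genes *Tlr1*, *Tlr2*, *Tlr3*, *Tlr4*, *Tlr5* and *Tlr9*, the intracellular receptor genes *Nod1*, *Nod2* and *Nlrp6*, and the adaptor gene *Myd88*. All 10 were among the 53465 genes of the count table, and 9 of them were among the 15044 genes that passed the filter on low counts. *Tlr9* did not pass it. A gene passes that filter when it reaches a minimum level in enough libraries of the size of 1 group, so a gene can pass through the groups where it is high. *Tlr5* passed through the colon alone, where 5 of 6 libraries were above the filter's 0.65 CPM, against 2 of 18 outside it.

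The mice carried the Guca2a-Venus transgene, a bacterial artificial chromosome in which the yellow fluorescent protein Venus replaces the coding sequence of *Guca2a*, the gene of the gut peptide proguanylin. The line came from 1 founder, and every group, the negative cells included, came from such mice. Epithelium of the duodenum, jejunum, ileum and colon was digested to single cells and sorted on fluorescence into GFP positive (Venus-positive) and GFP negative (Venus-negative) cells, after dead cells, debris and CD45-positive immune cells had been gated out. RNA was sequenced from 3 libraries in each of the 8 groups, 24 in all. The labels give no age, and the transgene marks whichever cells use the guanylin promoter, which need not be one cell type. The series states that the triplicates were different mice, but the labels do not say which mouse each library came from, so the sorts could not be matched by animal, and p-values measure the spread between these libraries.

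Pattern recognition receptors detect molecules that microbes share. TLR2, as a pair with TLR1, binds bacterial lipopeptides, TLR4 binds lipopolysaccharide, TLR5 binds flagellin, TLR3 binds double-stranded RNA and TLR9 binds unmethylated CpG DNA. All of these other than TLR3 signal through MyD88, whereas TLR3 uses TRIF, the product of *Ticam1*. NOD1 and NOD2 detect fragments of peptidoglycan in the cytosol and signal through the kinase RIPK2, and NLRP6 is an inflammasome sensor known from intestinal epithelium. The gut epithelium borders the microbiota that carries these molecules.

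On the GRCm38 assembly, with GENCODE M21 gene models, *Tlr1* lies at chr5:64924679-64933563, *Tlr2* at chr3:83836272-83841767, *Tlr3* at chr8:45395665-45411080, *Tlr4* at chr4:66827584-66930284, *Tlr5* at chr1:182954788-182976044 and *Tlr9* at chr9:106222598-106226883. *Nod1* lies at chr6:54923949-54972612, *Nod2* at chr8:88647315-88688474, *Nlrp6* at chr7:140920902-140929192 and *Myd88* at chr9:119335934-119341411. All 10 are annotated as protein-coding. *Myd88* overlaps *Acaa1a* on the opposite strand, which had 111 to 1280 counts per library. The libraries were made with a stranded kit, but whether the authors counted by strand is not given in the sources used here, so reads of *Acaa1a* counted on *Myd88* cannot be told apart from its own. *Tlr3* overlaps *Gm45542* on the opposite strand, which had 0 to 4 counts.

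The upstream sequences of *Tlr1*, *Tlr2* and *Tlr5* are shown because their transcripts were high in the colon, as described below. They come from the RefSeq promoter table for GRCm38.p6, which held 11 windows for 9 of the 10 genes, all but *Tlr4*, which was also high in the colon, among 32851 windows of the 250 bases before a transcription start. Each is written 5′ to 3′ on the gene's strand, without the bases that GENCODE places inside the gene, in lower case with the motifs that were found in capitals. The *Tlr1* stretch is chr5:64933564-64933808 (minus strand, 245 bases), the *Tlr2* stretch is chr3:83841768-83841858 (minus strand, 91 bases) and the *Tlr5* stretch is chr1:182954538-182954787 (plus strand, 250 bases).
Tlr1: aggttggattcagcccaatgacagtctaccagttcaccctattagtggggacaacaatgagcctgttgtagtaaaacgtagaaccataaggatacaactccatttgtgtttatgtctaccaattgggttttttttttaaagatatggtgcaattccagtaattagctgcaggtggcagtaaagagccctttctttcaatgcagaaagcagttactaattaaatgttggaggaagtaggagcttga
Tlr2: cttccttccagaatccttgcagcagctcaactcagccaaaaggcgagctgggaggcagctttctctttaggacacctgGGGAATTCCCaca
Tlr5: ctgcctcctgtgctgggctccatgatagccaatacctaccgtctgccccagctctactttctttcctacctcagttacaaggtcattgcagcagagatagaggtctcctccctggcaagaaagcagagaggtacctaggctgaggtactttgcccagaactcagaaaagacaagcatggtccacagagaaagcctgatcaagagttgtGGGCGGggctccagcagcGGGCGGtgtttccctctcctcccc

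Motifs were searched on both strands. The capitals in *Tlr2* are 2 overlapping matches to the NF-κB motif GGGANTTCC, on opposite strands, at 172 and 171 bases before the RefSeq start, and 1.43% of all 32851 windows held this motif. The capitals in *Tlr5* are 2 matches to the GC box GGGCGG at 42 and 24 bases before the start, and 32.7% of all windows held it. In the *Tlr1* stretch none was found of these 2 motifs, of the interferon response motif GAAANNGAA (7.13% of windows), the AP-1 motif TGANTCA (6.75%), the TATA box TATAAA (12.4%) or the CDX motif TTTATGG (2.43%). Across the other genes, the windows of *Nlrp6* and *Tlr9* each held 1 match to the AP-1 motif and that of *Myd88* held 1 to the interferon response motif, 1 to the GC box and 2 to the TATA box. The GC box also matched once in the window of *Nod1*, at 3 places in that of *Nod2* and at 2 in that of *Tlr2*, in bases not printed here. A match describes the letters of these windows and no binding was measured.

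The libraries had 7458616 to 23063124 reads counted on genes (median 15379489.5), of which mitochondrial genes took 32.3% to 80.7%. This share moved with the sort in the small intestine, with 32.3% to 46.6% in Venus-positive and 64.6% to 76.4% in negative cells of the duodenum, 47.1% to 60.6% and 61.2% to 78.8% in the jejunum, and 41.0% to 55.4% and 64.7% to 70.9% in the ileum. The sorts of the colon overlapped, at 68.6% to 77.9% and 65.3% to 80.7%. Levels are given as CPM, the count divided by the library size after TMM scaling and set to a common size for all libraries. A count of 3 was taken as the floor of detection, which is 0.106 to 0.360 CPM by library and covers counting error only. Between libraries of the same group the spread was beyond sampling noise (24 pairs, chi-square of 26.4 to 177 for each degree of freedom). The epithelial markers *Epcam*, *Cdh1*, *Krt8*, *Krt18* and *Krt19* summed to between 1426 and 3709 CPM in every library. By contrast, 16 immune markers summed to 2.05 to 31.4 CPM, with the macrophage gene *Adgre1* at 0 counts in all 24 libraries. Most of the highest sums, 11.2 to 31.4 CPM in Venus-positive cells of the duodenum, was *Lyz2* (mean 16.3 CPM), whose near-identical copy *Lyz1* is a Paneth cell gene. The sorts also differed in epithelial make-up. In Venus-positive cells of the duodenum 7 goblet cell markers summed to 52164 to 58942 CPM against 268 to 374 CPM in negative cells, and 10 enterocyte markers summed to 13149 to 13920 CPM in positive against 1366.5 to 1983.5 CPM in negative cells of the jejunum. The ileum had 5835.9 to 10447.8 CPM of enterocyte markers in positive and 508.6 to 666.6 CPM in negative cells, and the colon 577 to 741 CPM and 117 to 161 CPM. In such sorted pools, fewer cells of a type and less RNA per cell cannot be told apart.

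Per kilobase of annotated exon, *Nlrp6* had the highest mean level of the 10 genes over the 24 libraries, at 9.94 CPM per kb, followed by *Myd88* at 3.89 CPM per kb. *Tlr3* had a mean of 1.10 CPM per kb. The order differed by group: in Venus-positive cells of the colon *Tlr2* (4.42 CPM per kb) had a higher mean than *Myd88* (3.69), and *Tlr1* (3.08) and *Tlr4* (1.53) than *Tlr3* (1.18). *Nlrp6*, *Myd88* and *Tlr3* reached 3 counts in all 24 libraries. *Nod1* reached 3 counts in 23 of 24 libraries, *Nod2* in 21, *Tlr1* in 20, *Tlr2* in 18, *Tlr4* in 14, *Tlr5* in 10 and *Tlr9* in 4. *Tlr9*, the CpG DNA receptor, had at most 6 counts in a library and a total of 24, and was at 0 counts in all 9 Venus-positive libraries of the jejunum, ileum and colon.

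**Figure D1:**
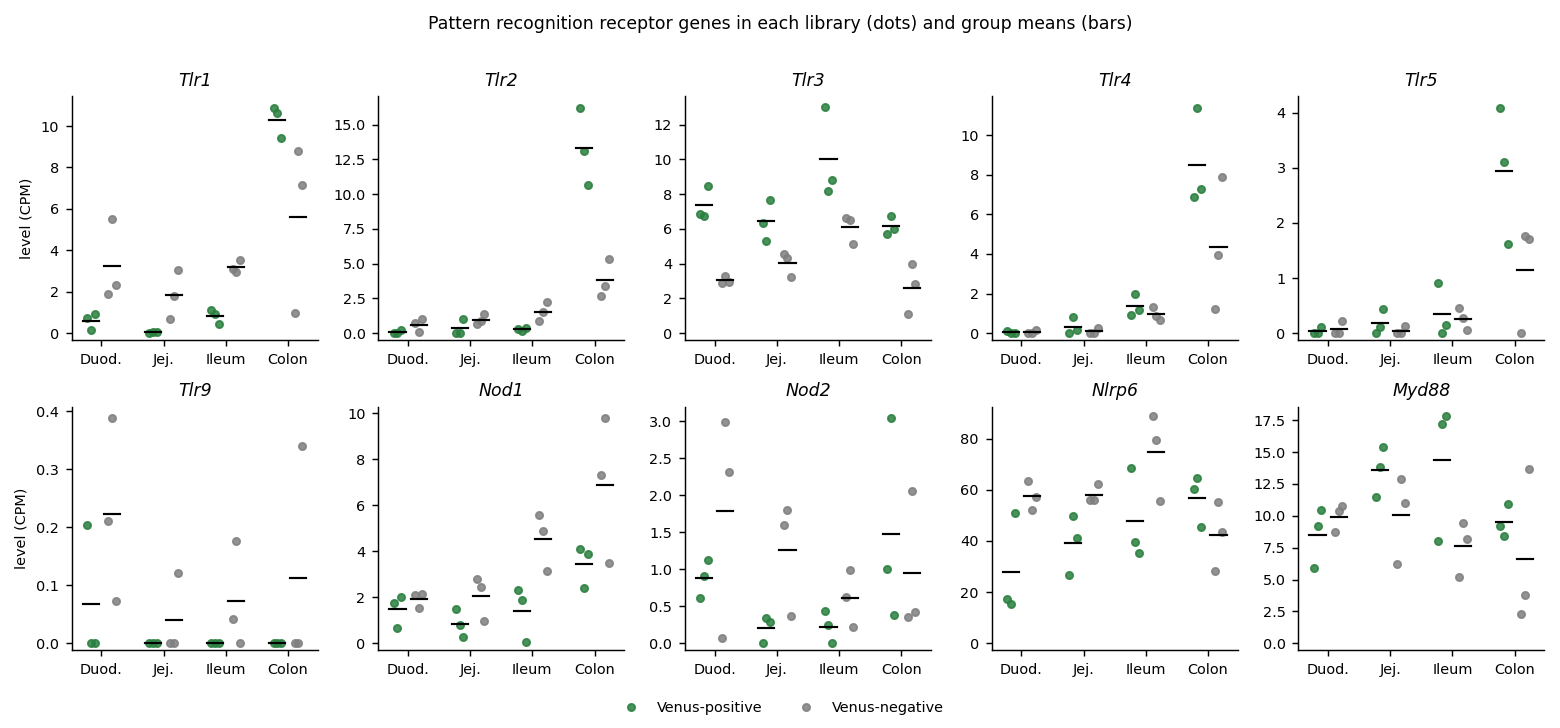
Levels in CPM (vertical axis, linear, own scale for each gene) of the 10 genes in the 4 regions, with 1 dot per library (green for Venus-positive, grey for Venus-negative) and a bar at the mean of the 3 libraries of a group. The dots of *Tlr1*, *Tlr2*, *Tlr4* and *Tlr5* are highest in the colon, those of *Tlr3* and *Nlrp6* are spread over all regions, and those of *Tlr9* stay below 0.4 CPM.

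How many of the genes differed between Venus-positive and Venus-negative cells was asked within each region, with edgeR's quasi-likelihood test and p-values adjusted over all 15044 genes. In the duodenum 1 of the 9 genes tested was higher in positive cells and 2 were lower, beside 8.88% and 8.08% of all genes. In the jejunum none was higher and 1 was lower, where 18.3% of all genes were higher and 25.6% lower. The ileum had none higher and 2 lower, against 17.9% and 20.6% of all genes. In the colon 1 was higher and none lower, with 9.31% and 3.8% of all genes. With counts this small, no share of the 9 genes was set apart from these backgrounds. The median log2 fold change was -1.02, -0.92, -0.64 and 0.86 from duodenum to colon over the 7, 8, 9 and 9 genes with a fold (without *Tlr4* and *Tlr5* in the duodenum and *Tlr5* in the jejunum, which were at the floor), and -0.99 in the duodenum with *Tlr2* at its bound, beside -0.16, -0.28, -0.27 and 0.00 for all genes tested. Over the 3 small intestinal regions the members called lower were *Tlr1*, *Tlr2* and *Nlrp6*, and the member called higher, in the duodenum and the colon, was *Tlr3*.

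**Figure D2:**
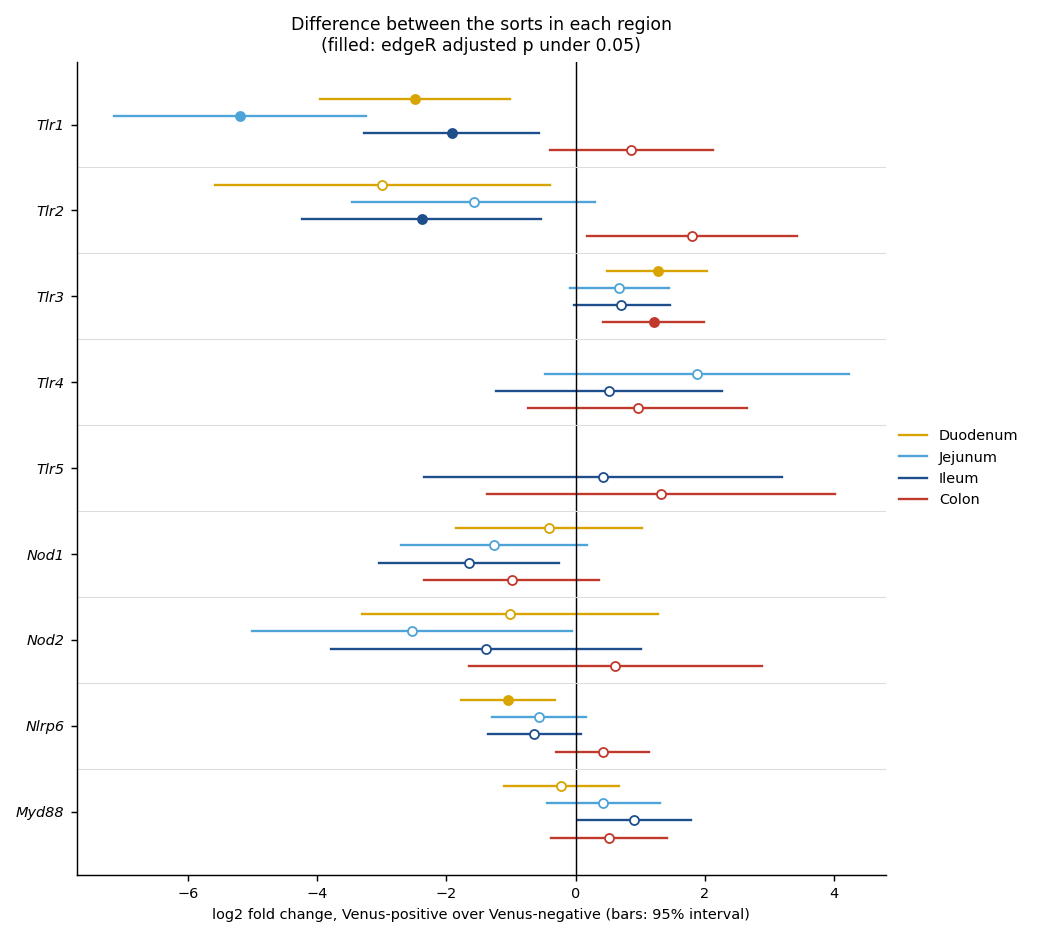
Log2 fold change of Venus-positive over Venus-negative cells (horizontal axis) for the 9 genes tested, by region, with 95% intervals from the edgeR fit, where filled points have an adjusted p under 0.05. *Tlr1* lies left of 0 in the 3 small intestinal regions and *Tlr3* right of 0 in all 4 regions; *Tlr4* and *Tlr5* in the duodenum are left out because both sorts were at or under 3 counts, as is *Tlr5* in the jejunum, where neither mean was above the floor, and the values of *Tlr1* in the jejunum and *Tlr2* in the duodenum depend on the prior count because the positive libraries had at most 1 and 2 counts.

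*Tlr1* encodes the partner of TLR2 on the cell surface. In the duodenum it had 0.717, 0.164 and 0.900 CPM in Venus-positive cells and 1.89, 5.51 and 2.31 CPM in negative cells. The jejunum gave 0, 0.0558 and 0.0729 CPM in positive cells and 0.683, 1.80 and 3.02 CPM in negative cells. In these regions every negative library lay above every positive one. Ileal values were 1.13, 0.901 and 0.441 CPM in positive cells and 3.09, 2.93 and 3.55 CPM in negative cells, again without overlap. The colon turned the order around, with 10.9, 10.6 and 9.42 CPM in positive cells and 0.959, 8.79 and 7.14 CPM in negative cells, where the lowest positive library was above the highest negative one.

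By edgeR *Tlr1* was lower in Venus-positive cells of the duodenum (log2 fold change -2.48 ± 0.72 (SE), adjusted p = 0.017) and of the ileum (-1.92 ± 0.66, adjusted p = 0.0221). In the jejunum, whose positive libraries had at most 1 count, it was at least 9.534-fold lower, taking 3 counts per library as the floor (edgeR adjusted p = 5.97e-05). In the colon the log2 fold change was 0.86, with a 95% interval from -0.40 to 2.12 and an edgeR adjusted p of 0.399. The duodenal call was lost without replicate 2 of the positive cells (-2.00, adjusted p = 0.0914) or replicate 2 of the negative cells (-1.86, adjusted p = 0.118), and in 1 of 7 other settings, scaling by library size alone (-1.96, adjusted p = 0.0633). The ileal call was lost without positive replicate 2 (adjusted p = 0.0543), positive replicate 3 (0.0981) or negative replicate 3 (0.0523).

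*Tlr2* encodes the lipopeptide receptor itself. Venus-positive cells of the colon had 16.2, 13.1 and 10.7 CPM, and negative cells of the colon had 2.64, 3.37 and 5.36 CPM. In the ileum the values were 0.323, 0.180 and 0.368 CPM in positive cells and 0.866, 1.55 and 2.22 CPM in negative cells. The 2 regions were thus ordered in opposite ways, with no overlap of the sorts in either. The jejunum had 0, 0 and 1.02 CPM in positive cells, where replicate 3 held all 14 counts, and 0.683, 0.836 and 1.39 CPM in negative cells. Duodenal values were 0, 0 and 0.225 CPM in positive cells and 0.702, 0.0648 and 1.01 CPM in negative cells, and these overlapped.

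The ileal difference of *Tlr2* passed the test (log2 fold change -2.38 ± 0.91, edgeR adjusted p = 0.0378). It was lost without any one of positive replicates 1, 2 and 3 (adjusted p = 0.0737, 0.119 and 0.07), negative replicates 2 and 3 (0.0623 and 0.111), or colon positive replicates 1 and 2 (0.0559 and 0.0584). In the colon the log2 fold change of 1.81, with an interval from 0.18 to 3.43, had an edgeR adjusted p of 0.137, and it was called in 1 of 7 other settings, the compared libraries alone (1.68, adjusted p = 0.0119). The jejunal value was -1.58 (adjusted p = 0.167), and without positive replicate 3 it was -6.90 (adjusted p = 0.000394), a fitted value against libraries at 0 that depends on the prior count. In the duodenum, where the positive libraries had at most 2 counts, the mean of the negative cells was at least 1.992-fold higher than the floor (edgeR adjusted p = 0.102, and 0.042 without jejunum positive replicate 3), and 1.29-fold without negative replicate 3.

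Whether the sort difference itself varied along the gut was tested with interaction terms. Over the 4 regions, with 3 degrees of freedom, 2 of the 9 genes passed, beside 17.5% of all genes: *Tlr1* (edgeR adjusted p = 0.0022) and *Tlr2* (edgeR adjusted p = 0.0267). The same 2 genes passed when the colon was set against the mean of the small intestinal regions, beside 4.13% of all genes. The sort difference of *Tlr1* was higher in the colon by 4.06 ± 0.79 on the log2 scale (edgeR adjusted p = 0.00291) and that of *Tlr2* by 4.13 ± 1.02 (adjusted p = 0.0181). Both are fitted values that depend on the prior count. The positive libraries of *Tlr1* in the jejunum and of *Tlr2* in the duodenum had at most 1 and 2 counts. For *Tlr2* the value was 5.91 without jejunum positive replicate 3 (adjusted p = 0.000228), and the call was lost without colon positive replicate 1 or 2 (adjusted p = 0.0577 and 0.0628) or colon negative replicate 1 or 2 (0.0566 and 0.0614), with values of 3.91 to 4.02. The mitochondrial share given above also differed between the sorts in the small intestine and not in the colon. Cell type markers moved in the same interaction of colon against small intestine, where 6 of 7 goblet cell markers (median -3.01) and 5 of 6 Paneth cell markers (-4.28) were called lower and 3 of 7 endocrine and tuft cell markers (1.93 over the 7) were called higher: *Chga* (2.62), *Chgb* (2.93) and *Tph1* (1.93). The part of these was not tested. Between the duodenum and the mean of the jejunum and ileum none of the 9 passed by edgeR or by DESeq2, nor did any have an unadjusted edgeR p under 0.05, beside 17.5% of all genes called by edgeR and 22% by DESeq2.

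Stromal and vascular markers summed higher in negative cells of every region, and *Vim* had the highest mean of them over the 24 libraries (4.99 CPM). Of the 6 tested among 8, 1, 1, 4 and 0 were called lower in positive cells from duodenum to colon. All genes gave 8.08%, 25.6%, 20.6% and 3.8%. The gene called in the duodenum and jejunum was *Vim* (log2 fold changes -4.82 and -5.46). In the duodenum 8 such markers summed to 0.225 to 2.15 CPM in positive cells, with *Pecam1*, *Cdh5*, *Kdr* and *Col1a1* at 0 counts, and to 9.01 to 26.1 CPM in negative cells. The sums in the jejunum were 0.223 to 0.802 CPM against 5.63 to 18.5 CPM, with *Cdh5*, *Kdr*, *Col1a1* and *Dcn* at 0 in positive cells and *Col3a1* at 0 in negative cells. In the ileum they were 0.515 to 2.28 CPM against 7.94 to 22.9 CPM, with *Kdr* at 0 in both sorts and *Dcn* at 0 in positive cells. The colon had 2.16 to 3.40 CPM, with *Cdh5* and *Kdr* at 0 in positive cells, against 4.17 to 19.7 CPM. Stem cell and proliferation markers, 6 in number, also summed higher in negative cells of each region, for example to 1531 to 2501 CPM in the jejunum against 35.4 to 304 CPM, and to 113 to 235 CPM in the colon against 48.8 to 61.1 CPM. The same held for 7 markers of endocrine and tuft cells, with 813 to 908 CPM in negative against 17.1 to 47.2 CPM in positive cells of the duodenum. Their sums were 254 to 1212 CPM against 20.6 to 43.2 CPM in the jejunum, 167 to 458 CPM against 13.2 to 37.7 CPM in the ileum and 464 to 834 CPM against 149 to 302 CPM in the colon. Of the 16 immune markers 9 were tested. In the ileum 1 was called higher and 2 lower, with a list median of -0.13 against -0.27 for all genes. The myeloid markers *Cd68* (0 counts in positive cells against 0.749 ± 0.824 CPM in negative cells, edgeR adjusted p = 0.0217) and *Itgam* (0.237 ± 0.222 against 2.66 ± 0.156 CPM, adjusted p = 0.00993) were lower in positive cells of the ileum without overlap, and *Lyz2* was higher (adjusted p = 0.013). Not called there were *Ptprc* (-0.13), *Laptm5* (-0.32), *Coro1a* (-0.10), *Cd3g* (-0.54), *Cd3e* (1.03) and *Ms4a1* (0.71). The B cell marker *Ms4a1* was lower in positive cells of the jejunum (edgeR adjusted p = 0.0494), and *Lyz2* was higher in those of the duodenum (adjusted p = 0.000823). The immune sums were 4.35 to 9.63 CPM in positive and 2.05 to 12.35 CPM in negative cells of the jejunum, and 7.48 to 16.5 CPM and 7.21 to 15.8 CPM in the ileum, with *Adgre1* at 0 counts in both sorts. The part of these cells in the results of *Tlr1* and *Tlr2* was not tested. In the colon the immune markers summed to 2.24 to 4.71 CPM in Venus-positive cells, with *Cd79a*, *Ms4a1*, *Itgax*, *Adgre1* and *Tyrobp* at 0 counts, and to 2.81 to 4.61 CPM in negative cells there.

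Levels in the colon were then compared with those in the small intestine within each sort. In Venus-positive cells 5 of the 9 genes tested were higher in the colon than in the mean of the small intestinal regions and none was lower, beside 15.9% and 10.3% of all genes. These were *Tlr1*, *Tlr2*, *Tlr4*, *Tlr5* and *Nod1*. As *Tlr5* had passed the filter through the colon alone, its differences along the gut, here and below, are a description, and the other 8 genes gave 4 in positive and 2 in negative cells. Over the 4 regions, 4 of the 9 differed among Venus-positive cells (*Tlr1*, *Tlr2*, *Tlr4* and *Tlr5*), beside 43.3% of all genes. In Venus-negative cells 3 were higher in the colon, *Tlr2*, *Tlr4* and *Tlr5*, and none was lower, beside 5.74% and 6.53% of all genes. Only *Tlr4* passed the test over the 4 regions of negative cells by edgeR, beside 12.3% of all genes, and 5 of the 9 passed by DESeq2, beside 15.4% of all genes. The median log2 fold change of the 9 genes for colon over small intestine was 2.05 in positive and 1.08 in negative cells, against 0.15 and -0.14 for all genes. Both medians include *Tlr5*, whose filter raises them, so they are a description and are not set apart from all genes. In negative cells *Tlr3* (-0.66), *Nod2* (-0.21), *Nlrp6* (-0.57) and *Myd88* (-0.46) went the other way and the rest did not. In positive cells *Tlr3* (-0.34) and *Myd88* (-0.32) did so. Comparisons of the positive cells and of the sorts share libraries, so they are not independent of one another. Markers of cell types moved in the same comparisons. In positive cells all 6 Paneth cell markers and 9 of 10 enterocyte markers were lower in the colon (median log2 fold changes -7.98 and -4.18), and 6 of 7 endocrine and tuft cell markers were higher (2.26). Of 7 goblet cell markers 4 were lower and 1 was higher (-0.96). Of 6 stromal markers tested 2 were higher and none was lower (1.73 over the 6). These were *Pecam1* (3.53, edgeR adjusted p = 0.0277), with a total of 147 counts over the 24 libraries, and *Vim* (1.97, adjusted p = 0.0232). In negative cells 5 of 7 goblet cell markers were higher (1.82), and 9 of 10 enterocyte (-3.22) and 5 of 6 Paneth cell markers (-3.91) were lower. The mitochondrial share was also higher in positive cells of the colon than in those of the small intestine. The part of these in the receptor levels was not tested.

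*Tlr1* in Venus-positive cells was at least 53.54-fold higher in the colon than the floor of the jejunum (edgeR adjusted p = 5.97e-09 for colon against small intestine). Venus-positive *Tlr2* was at least 44.85-fold higher in the colon than the floor of the duodenum (edgeR adjusted p = 2.43e-08). The highest small intestinal means of positive cells were 0.824 ± 0.351 CPM for *Tlr1*, in the ileum, and 0.340 ± 0.590 CPM for *Tlr2*, in the jejunum. In negative cells *Tlr2* was higher by 1.98 ± 0.61 on the log2 scale (edgeR adjusted p = 0.0293), which was lost without ileum negative replicate 1 (adjusted p = 0.0504), colon positive replicate 1 (0.0524) or colon negative replicate 3 (1.63, 0.151). For negative cells of *Tlr1* the value was 1.08 (95% interval 0.10 to 2.07, edgeR adjusted p = 0.155), and without colon negative replicate 1 it was 1.56 (adjusted p = 0.0253).

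*Tlr4*, the lipopolysaccharide receptor, followed region in both sorts. Duodenal libraries of both sorts had at most 2 counts, so no fold between the sorts is given there. In the jejunum Venus-positive cells had 0, 0.837 and 0.146 CPM and negative cells 0, 0 and 0.242 CPM. The ileum gave 0.915, 1.98 and 1.18 CPM in positive cells and 1.32, 0.846 and 0.665 CPM in negative cells, which overlapped. Colon values were 6.88, 11.4 and 7.29 CPM in positive cells and 1.2, 3.96 and 7.91 CPM in negative cells, and these overlapped too. All 3 positive libraries of the colon lay above every library of the small intestine, whereas the lowest negative library of the colon did not.

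Between the sorts *Tlr4* had log2 fold changes of 1.88 (95% interval -0.47 to 4.23), 0.52 (-1.23 to 2.27) and 0.96 (-0.73 to 2.65) in jejunum, ileum and colon, with edgeR adjusted p of 0.189, 0.666 and 0.498. The jejunal value is a fitted one that depends on the prior count, with the negative mean under the floor. Without jejunum negative replicate 3 it was 5.38 (adjusted p = 0.0318), against negative libraries at 0, and without jejunum positive replicate 2 it turned to -0.20 (adjusted p = 0.941). The colon was at least 28.69-fold above the floor of the duodenum in positive cells and at least 21.03-fold in negative cells, which was 12.44-fold without colon negative replicate 3. The ileum was closer to the colon, with means of 1.36 ± 0.557 CPM in positive and 0.944 ± 0.338 CPM in negative cells against 8.52 and 4.35 CPM. For colon against the mean of the small intestinal regions the edgeR adjusted p was 2.38e-06 in positive and 1.32e-05 in negative cells.

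*Tlr5* encodes the flagellin receptor. Venus-positive cells of the colon had 4.09, 3.12 and 1.61 CPM, and negative cells of the colon had 0, 1.76 and 1.70 CPM. In the ileum the values were 0.915, 0 and 0.147 CPM in positive cells and 0.454, 0.282 and 0.0554 CPM in negative cells. Duodenal and jejunal libraries had at most 6 counts. The sorts overlapped in every region, and only the positive libraries of the colon lay apart from all small intestinal ones.

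Colonic *Tlr5* was at least 9.901-fold above the floor of the duodenum in positive cells and at least 5.567-fold in negative cells. The edgeR adjusted p for colon against small intestine was 0.00217 in positive and 0.0246 in negative cells. The negative call was lost without colon negative replicate 2 (adjusted p = 0.0895) or replicate 3 (0.0954), and with the i5 index as covariate (0.0557). Between the sorts the edgeR adjusted p was 0.835 in the ileum, with a log2 fold change of 0.42 (95% interval -2.35 to 3.19), and 0.568 in the colon, with 1.32 (-1.37 to 4.02). The ileal value turned to -1.83 without ileum positive replicate 1 and to -0.03 without ileum negative replicate 3. In the jejunum the positive libraries had 0 to 6 counts and the negative ones 0 to 2, and no fold is given.

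**Figure D3:**
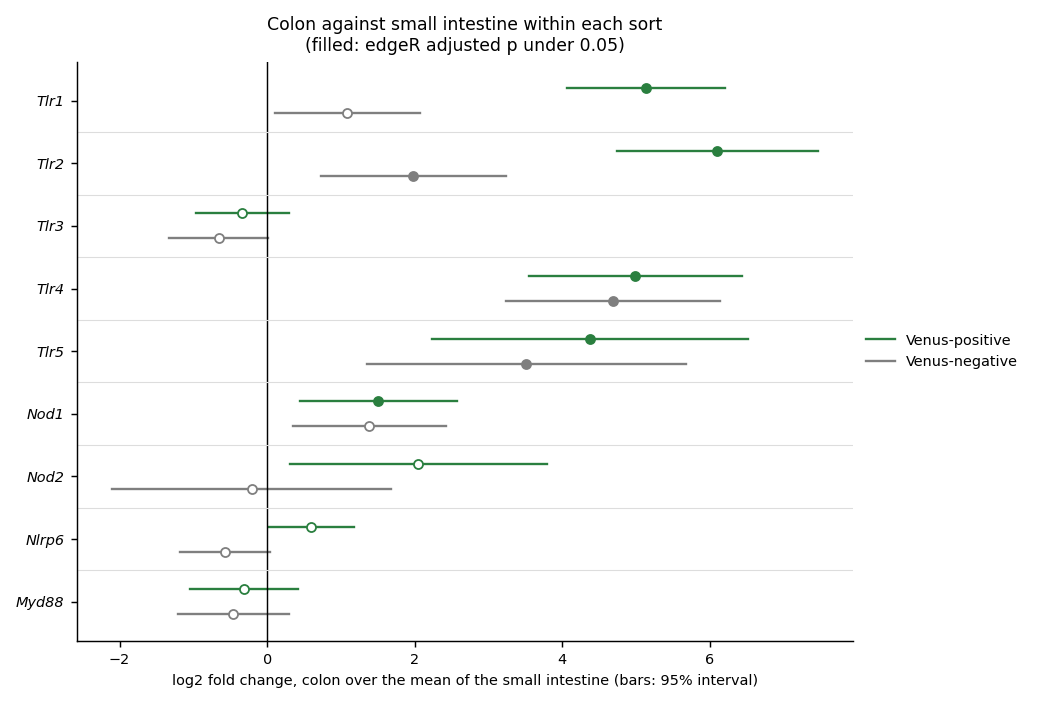
Log2 fold change of the colon over the mean of the 3 small intestinal regions (horizontal axis) within Venus-positive (green) and Venus-negative (grey) cells for the 9 genes tested, with 95% intervals from the edgeR fit, where filled points have an adjusted p under 0.05. Positive cells are filled for *Tlr1*, *Tlr2*, *Tlr4*, *Tlr5* and *Nod1*, negative cells for *Tlr2*, *Tlr4* and *Tlr5*, and the fitted values of *Tlr1*, *Tlr2*, *Tlr4* and *Tlr5* depend on the prior count because some small intestinal groups were at or under 3 counts.

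Ordered by group mean, Venus-positive cells of the colon were first for *Tlr1* (10.3 ± 0.782 CPM, SD, n = 3), *Tlr2* (13.3 ± 2.80 CPM), *Tlr4* (8.52 ± 2.5 CPM) and *Tlr5* (2.94 ± 1.25 CPM), and negative cells of the colon were second for all 4. The libraries of these 2 groups did not overlap for *Tlr1* and *Tlr2* and overlapped for *Tlr4* and *Tlr5*. For *Tlr2* the negative cells of the colon (3.79 ± 1.41 CPM) were also apart from the next group, negative cells of the ileum (1.54 ± 0.676 CPM), while all later neighbours overlapped. *Tlr1* ended with Venus-positive cells of the jejunum (0.0429 ± 0.0381 CPM), apart from those of the duodenum (0.594 ± 0.383 CPM), and its groups from second to seventh place each overlapped the next. All neighbours in the order overlapped for *Tlr4* and *Tlr5*.

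*Tlr3*, the endosomal receptor for double-stranded RNA, showed another pattern, with every Venus-positive library above every negative library of its region. The share of all genes whose sorts lay apart was not counted, here or for the other members. The duodenum had 6.86, 6.73 and 8.44 CPM in positive cells and 2.88, 3.31 and 2.96 CPM in negative cells. In the jejunum the values were 6.33, 5.30 and 7.66 CPM in positive cells and 4.55, 4.31 and 3.21 CPM in negative cells. Ileal positive cells gave the highest library, with 13, 8.17 and 8.83 CPM, against 6.64, 6.49 and 5.16 CPM in negative cells. Colon values were 5.72, 6.73 and 6.0 CPM in positive cells and 1.08, 3.96 and 2.81 CPM in negative cells.

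*Tlr3* was higher in Venus-positive cells of the duodenum (log2 fold change 1.27 ± 0.38, edgeR adjusted p = 0.0212) and the colon (1.21 ± 0.38, adjusted p = 0.0347). In the jejunum the value was 0.68 (95% interval -0.09 to 1.44, edgeR adjusted p = 0.144) and in the ileum 0.71 (-0.03 to 1.46, adjusted p = 0.123). The jejunal difference was called in 2 of 7 other settings, DESeq2 and library size alone (values up to 1.04, adjusted p down to 0.0439). The interaction over regions had an adjusted p of 0.723, so a difference between the regions did not pass. The duodenal call was lost without duodenum positive replicate 1 or 3 (adjusted p = 0.0517 and 0.0693) or any of the 3 negative replicates (0.0737, 0.0572 and 0.0731), with values of 1.15 to 1.32. In the colon it was lost without any of the 3 positive replicates (0.0749, 0.151 and 0.0667), negative replicate 1 (0.87, adjusted p = 0.143) or 3 (0.08), or jejunum negative replicate 1 (0.054). Of 7 other settings, 6 called the duodenal difference (adjusted p up to 0.0554, without a filter) and 4 the colonic one (adjusted p up to 0.166, with the compared libraries alone). The groups were ordered from Venus-positive ileum (10.0 ± 2.64 CPM) to Venus-negative colon (2.61 ± 1.45 CPM), and only negative cells of the ileum and of the jejunum were neighbours without overlap. Colon and small intestine did not pass the test for *Tlr3* in either sort (edgeR adjusted p = 0.461 and 0.209).

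*Nod1*, the receptor for peptidoglycan fragments found mainly in Gram-negative bacteria, had lower group means in positive cells of every region, though the duodenal log2 fold change was 0.04 when scaled by library size alone, and none of the 4 differences passed in the fit used here. In the ileum it had 2.31, 1.86 and 0.0735 CPM in Venus-positive cells and 5.57, 4.87 and 3.16 CPM in negative cells, without overlap. Colon values were 4.09, 2.41 and 3.87 CPM in positive cells and 7.31, 9.81 and 3.49 CPM in negative cells, which overlapped. The log2 fold changes were -0.41, -1.27, -1.65 and -0.99 from duodenum to colon, with edgeR adjusted p of 0.734, 0.147, 0.0548 and 0.364. Leaving out 1 library brought the ileal value past the threshold in 3 cases: duodenum positive replicate 2 (adjusted p = 0.0489), jejunum positive replicate 3 (0.0462) or ileum positive replicate 1 (0.034). Of 7 other settings 4 called the ileal difference, with log2 fold changes of -1.75 to -1.59 and adjusted p of 0.0329 (DESeq2) to 0.0805 over the 7.

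Along the gut, *Nod1* in Venus-positive cells was higher in the colon by 1.5 ± 0.52 on the log2 scale (edgeR adjusted p = 0.0319), which was lost without duodenum positive replicate 2 (adjusted p = 0.052) or colon positive replicate 1 (0.128) or 3 (0.118). It was called in 5 of 7 other settings (values of 1.13 to 1.64, adjusted p up to 0.119). In negative cells the value was 1.38 (95% interval 0.35 to 2.42, edgeR adjusted p = 0.0749), and leaving out jejunum positive replicate 2, jejunum negative replicate 1, ileum positive replicate 3 or colon negative replicate 3 gave adjusted p of 0.0476, 0.0466, 0.0313 and 0.0491. This difference was called in 6 of 7 other settings (values of 1.24 to 1.52, adjusted p of 0.0108 to 0.129), so its place on either side of the threshold depended on the setting. All neighbours among the 8 groups overlapped, from negative cells of the colon (6.87 ± 3.19 CPM) to positive cells of the jejunum (0.847 ± 0.592 CPM).

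*Nod2*, the muramyl dipeptide receptor that is known from Paneth and stem cells, had at most 46 counts in a library. In the jejunum its Venus-positive libraries had 0, 0.335 and 0.292 CPM and its negative libraries 1.59, 1.80 and 0.363 CPM, with no overlap but an edgeR adjusted p of 0.0905 for a log2 fold change of -2.53 (95% interval -5.01 to -0.06). The sorts overlapped in the other 3 regions, with log2 fold changes of -1.02, -1.38 and 0.61 in the duodenum, ileum and colon and edgeR adjusted p of 0.575, 0.368 and 0.78. In the colon, positive replicate 2 (3.04 CPM) held most of the positive reads, and without it the value turned to -0.50 (adjusted p = 0.889). Venus-positive cells of the duodenum, where the summed Paneth cell markers were highest (22151 to 52958 CPM), had 0.614, 0.903 and 1.12 CPM of *Nod2*, within the range of the negative libraries there (0.0702 to 2.98 CPM).

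*Nlrp6*, the inflammasome sensor, had 168 to 2248 counts per library, the most of the 10 genes. In the duodenum its Venus-positive libraries had 17.2, 15.5 and 51.0 CPM and its negative libraries 63.4, 52.3 and 57.0 CPM. All positive libraries lay below every negative one, with replicate 3 close to the lowest of them and far above the other 2. The log2 fold change was -1.05 ± 0.36 (edgeR adjusted p = 0.0418). The call was lost without any one of 9 libraries, among them duodenum positive replicate 1 (-0.80, adjusted p = 0.199) and replicate 2 (-0.76, adjusted p = 0.204), and all 3 negative replicates (0.104, 0.0682 and 0.0806). The other libraries whose removal ended it were jejunum positive replicate 2 (0.0524), jejunum negative replicate 1 (0.0625), colon positive replicate 2 (0.0625) and colon negative replicate 2 (0.057). It was also lost in 1 of 8 other settings, scaling by library size alone (-0.58, adjusted p = 0.34). Without duodenum positive replicate 3 the value was -1.82 (adjusted p = 0.000644).

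The jejunum gave *Nlrp6* levels of 26.8, 49.8 and 41.0 CPM in positive cells and 55.8, 56.0 and 62.2 CPM in negative cells, which did not overlap, with a log2 fold change of -0.57 (95% interval -1.29 to 0.16, edgeR adjusted p = 0.199). In the ileum positive cells had 68.3, 39.7 and 35.4 CPM and negative cells 88.8, 79.3 and 55.8 CPM, with a log2 fold change of -0.64 (adjusted p = 0.152), and without positive replicate 1 it was -0.99 (adjusted p = 0.0477). With at least 10 counts required in every library it was -0.83 (adjusted p = 0.0481). The colon had 60.4, 64.6 and 45.4 CPM in positive cells and 28.0, 55.3 and 43.5 CPM in negative cells, with a log2 fold change of 0.42 (-0.30 to 1.14, adjusted p = 0.481). The interaction over regions had an edgeR adjusted p of 0.145, and colon against small intestine one of 0.0972 for a difference of 1.17 on the log2 scale, so a change in the sort difference along the gut did not pass. Within positive cells the colon differed from the small intestine by 0.60 on the log2 scale (edgeR adjusted p = 0.112), and by 0.86 (adjusted p = 0.00703) without duodenum positive replicate 3. In the duodenum the goblet and Paneth cell markers moved with the sort as given above, and their part in the *Nlrp6* value was not tested.

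*Myd88*, the adaptor of the Toll-like receptors other than TLR3, had 19 to 287 counts per library. Its Venus-positive libraries ranged from 5.94 to 10.5 CPM in the duodenum, 11.5 to 15.4 CPM in the jejunum, 8.02 to 17.8 CPM in the ileum and 8.42 to 10.9 CPM in the colon. Its negative libraries ranged from 8.70 to 10.7 CPM, 6.22 to 12.9 CPM, 5.24 to 9.42 CPM and 2.28 to 13.7 CPM in the same order. The sorts overlapped in all 4 regions, and all neighbours in the order of the 8 groups overlapped. The log2 fold changes were -0.22, 0.43, 0.91 and 0.52, with edgeR adjusted p of 0.776, 0.434, 0.0954 and 0.489. The ileal value passed without ileum positive replicate 1 (1.2, adjusted p = 0.0405) or colon negative replicate 3 (0.91, adjusted p = 0.0409), or with the compared libraries alone (adjusted p = 0.0424), and the colonic value passed without colon negative replicate 3 (1.63, adjusted p = 0.0141). Neither sort differed between colon and small intestine (edgeR adjusted p = 0.573 and 0.49).

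The remaining Toll-like receptor genes were barely detected. None of *Tlr6*, *Tlr7*, *Tlr8*, *Tlr11*, *Tlr12* and *Tlr13* passed the filter, and those other than *Tlr6* had at most 5 counts in any library. *Tlr6*, the other partner of TLR2, reached 40 counts in 1 Venus-positive library of the duodenum (3.28 CPM), against at most 10 counts in any library outside that group.

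Proteins that work beside the receptors were described from lists chosen by role. Of 7 genes for co-receptors and chaperones of Toll-like receptors, all tested, 1, 1, 0 and 0 were higher in Venus-positive cells of the duodenum, jejunum, ileum and colon and 0, 2, 1 and 0 were lower, with list medians of 0.55, -0.28, -0.01 and 0.01. For these and the next lists, the shares of all genes tested were 8.88%, 18.3%, 17.9% and 9.31% higher and 8.08%, 25.6%, 20.6% and 3.8% lower from duodenum to colon, and their medians were -0.16, -0.28, -0.27 and 0.00. The lipopolysaccharide co-receptor gene *Cd14* was lower in positive cells of the jejunum (0.220 ± 0.0953 CPM against 2.10 ± 0.453 CPM, log2 fold change -3.24 ± 0.80, edgeR adjusted p = 0.00153). *Cd36*, a fatty acid transporter that also serves TLR2, was higher in positive cells of the jejunum (43.0 ± 21.9 CPM against 7.17 ± 3.20 CPM, log2 fold change 2.58 ± 0.56, adjusted p = 0.00042). *Lbp*, for lipopolysaccharide binding protein, had 14 to 41 counts in positive cells of the duodenum and 0 in the negative ones, at least 11.28-fold higher, or 6.775-fold without its highest library (edgeR adjusted p = 0.0068).

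Among adaptors and kinases downstream of the receptors, most genes called were higher. Cell type markers moved with the sort beside this list and the regulator, inflammasome, nucleic acid sensor and induced gene lists. All 7 goblet cell markers were higher in positive cells of all 4 regions (median log2 fold changes 7.45, 3.41, 4.55 and 1.82), and all 6 Paneth cell markers in the 3 small intestinal ones (6.53, 3.88 and 4.42). Of 10 enterocyte markers 2, 9, 10 and 4 were higher and 2, 0, 0 and 0 lower. Of 6 stem cell and proliferation markers 2, 6, 6 and 4 were lower, and of 7 endocrine and tuft cell markers 7, 7, 7 and 3. The part of these cells was not tested. Of 23 tested among 26 such genes, 6, 14, 10 and 5 were higher in Venus-positive cells of the duodenum, jejunum, ileum and colon, and 0, 1, 1 and 0 were lower. The list's median log2 fold changes were 0.49, 0.97, 0.71 and 0.50. *Irf7*, a transcription factor of the interferon response, was higher in all 4 regions, with log2 fold changes of 1.71 ± 0.40, 3.37 ± 0.43, 3.99 ± 0.44 and 2.79 ± 0.43 (edgeR adjusted p = 0.00381, 4.84e-07, 7.88e-08 and 4.39e-05). The TRIF gene *Ticam1*, the adaptor of TLR3, was higher in the jejunum (1.68 ± 0.32, edgeR adjusted p = 0.000103) and ileum (1.87 ± 0.32, adjusted p = 3.63e-05). In the colon it was at 0.96 ± 0.33 (edgeR adjusted p = 0.0471), a call kept in 1 of 8 other settings and in 11 of 24 fits without 1 library (adjusted p up to 0.21). The kinase gene *Tbk1*, which acts below TRIF, was higher in the duodenum (1.02 ± 0.27), jejunum (2.05 ± 0.28) and ileum (1.94 ± 0.28), with adjusted p of 0.00954, 1.02e-06 and 2.61e-06 by edgeR, and the duodenal call was lost without duodenum negative replicate 1 (0.066). *Tirap*, for the adaptor that brings MyD88 to TLR2 and TLR4, was higher in the duodenum (2.07 ± 0.50, edgeR adjusted p = 0.00488). Its colonic value of 1.52 ± 0.51 (edgeR adjusted p = 0.0444) was called in 3 of 7 other settings and in 8 of 24 fits without 1 library, with adjusted p up to 0.167.

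Among negative regulators of these pathways no gene was called lower. Of 9 tested, 2, 6, 6 and 2 were higher in the 4 regions in the same order, with list medians of 0.67, 1.23, 1.58 and 0.83. *Tollip*, which restrains signalling by IRAK kinases, had log2 fold changes of 2.47 ± 0.32, 2.18 ± 0.31 and 1.40 ± 0.32 in jejunum, ileum and colon (edgeR adjusted p = 5.02e-07, 3.04e-06 and 0.00316), and the colonic call was lost without colon positive replicate 2 (0.0512). *Tnfaip3*, for the ubiquitin-editing enzyme A20, rose in the jejunum (1.45 ± 0.35, edgeR adjusted p = 0.00127) and ileum (1.70 ± 0.35, adjusted p = 0.000327).

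Of 18 inflammasome genes tested among 22, 4, 10, 11 and 5 were higher in Venus-positive cells of the duodenum, jejunum, ileum and colon, and 2, 2, 1 and 0 were lower, with list medians of 0.49, 1.07, 1.62 and 0.47. *Gsdmd*, for the pore-forming gasdermin D, was at 226 ± 70.3 CPM in positive against 26.4 ± 15.3 CPM in negative cells of the jejunum (log2 fold change 3.09 ± 0.37, edgeR adjusted p = 2.1e-07). It was also higher in the ileum (3.26 ± 0.37, edgeR adjusted p = 1.22e-07) and colon (1.41 ± 0.35, adjusted p = 0.00718). *Naip5*, a flagellin sensor, was higher by 1.78 ± 0.32 in the duodenum, 2.75 ± 0.32 in the jejunum and 2.76 ± 0.32 in the ileum on the log2 scale (edgeR adjusted p = 0.000237, 1.86e-07 and 1.83e-07). *Naip5* belongs to a family of similar genes with *Naip1*, *Naip2* and *Naip6*, so its counts are uncertain. *Nlrp9b* was higher in the jejunum (3.53 ± 0.62), ileum (4.00 ± 0.64) and colon (4.24 ± 0.77), with edgeR adjusted p of 3.11e-05, 1.24e-05 and 0.000316. *Pycard*, for the adaptor ASC that joins NLRP6 to caspase-1, was lower in positive cells of the small intestine. Its mean was 86.3 ± 19.7 CPM in positive and 318 ± 31.9 CPM in negative cells of the duodenum (log2 fold change -1.88 ± 0.40, edgeR adjusted p = 0.00167). In the jejunum the means were 30.0 ± 20.2 CPM and 295 ± 59.2 CPM (-3.30 ± 0.43, edgeR adjusted p = 6.17e-07), and the ileal log2 fold change was -2.23 ± 0.41 (adjusted p = 7.34e-05). In the colon it was -0.09 (95% interval -0.89 to 0.71, edgeR adjusted p = 0.921), and the sort difference was higher there than in the small intestine by 2.38 ± 0.46 on the log2 scale (interaction, edgeR adjusted p = 0.00281). For *Naip5* the same interaction was -2.01 ± 0.37 (edgeR adjusted p = 0.00161). The similar genes went both ways, *Naip1* at 1.47 ± 0.39 (edgeR adjusted p = 0.0271) and *Naip6* at -1.49 ± 0.39 (0.0256), with *Naip2* not called (-0.48). The calls of *Naip1* and *Naip6* were lost in some fits without 1 library (adjusted p up to 0.156 and 0.0927). Of the 18 genes tested, 2 were higher and 2 lower in this interaction, beside 4.13% of all genes called.

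Among cytosolic nucleic acid sensors, *Ifih1* and *Ddx58*, the genes of the RNA sensors MDA5 and RIG-I, were higher in Venus-positive cells of all 4 regions. Of 8 tested, 3, 5, 5 and 3 were higher and 0, 2, 2 and 0 lower in the 4 regions, with list medians of 1.23, 1.59, 1.68 and 1.22. *Ifih1* had log2 fold changes of 1.36 ± 0.31, 2.42 ± 0.32, 2.33 ± 0.31 and 1.78 ± 0.32 (edgeR adjusted p = 0.00257, 6.46e-07, 1.32e-06 and 0.000264). *Cgas*, for the DNA sensor, had at most 2 counts in Venus-positive cells of the jejunum and was at least 12.14-fold higher in negative cells (2.34 ± 0.911 CPM, edgeR adjusted p = 0.000524). It was lower in positive cells of the ileum too (0 to 5 counts, with a mean of 0.114 ± 0.139 CPM under the floor, against 2.86 ± 0.994 CPM, edgeR adjusted p = 0.00144). Of 4 peptidoglycan recognition protein genes only *Pglyrp1* was tested, and it was higher in positive cells of the duodenum (1.43 ± 0.44, edgeR adjusted p = 0.0227). This was lost without duodenum positive replicate 2 or 3 or duodenum negative replicate 1 or 2, with adjusted p up to 0.116.

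Genes that these receptors are known to induce were chosen as a last list. Of 9 tested among 12, 1, 3, 6 and 5 were higher in the positive sort, from duodenum to colon, and 0, 1, 0 and 0 lower, with list medians of 0.40, 0.62, 1.91 and 2.41. *Saa1*, for serum amyloid A, reached 112 ± 77.7 CPM in positive against 6.78 ± 6.83 CPM in negative cells of the ileum (log2 fold change 4.03 ± 0.72, edgeR adjusted p = 5.36e-05). In the colon it had 70.9 ± 30.1 CPM and 9.88 ± 6.72 CPM (2.84 ± 0.69, edgeR adjusted p = 0.00556), while Venus-positive cells of the duodenum had at most 2 counts. It was also called higher in the jejunum (edgeR adjusted p = 0.0372), where the negative mean was under the floor, and this was lost without positive replicate 2 or 3 or negative replicate 1 or 2, with adjusted p up to 0.139. *Saa1* and *Nlrp9b* have close copies in the genome, so their counts are uncertain too. *Duox2*, for an epithelial oxidase, was called higher in all 4 regions, by 2.48 ± 0.70, 1.69 ± 0.62, 1.91 ± 0.62 and 2.41 ± 0.64 on the log2 scale (edgeR adjusted p = 0.0136, 0.028, 0.0158 and 0.0111), with overlapping sorts in the jejunum and ileum. Each of these calls was lost without 1 library: duodenum negative replicate 2 (adjusted p = 0.0626), jejunum positive replicates 2 and 3 or negative replicates 1 and 3 (0.0543 to 0.108), ileum positive replicates 2 and 3 or negative replicates 1 and 3 (0.06 to 0.0843), and colon positive replicate 2 (0.0937). *Cxcl1*, *Cxcl2* and *Lcn2* did not pass the filter.

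**Figure D4:**
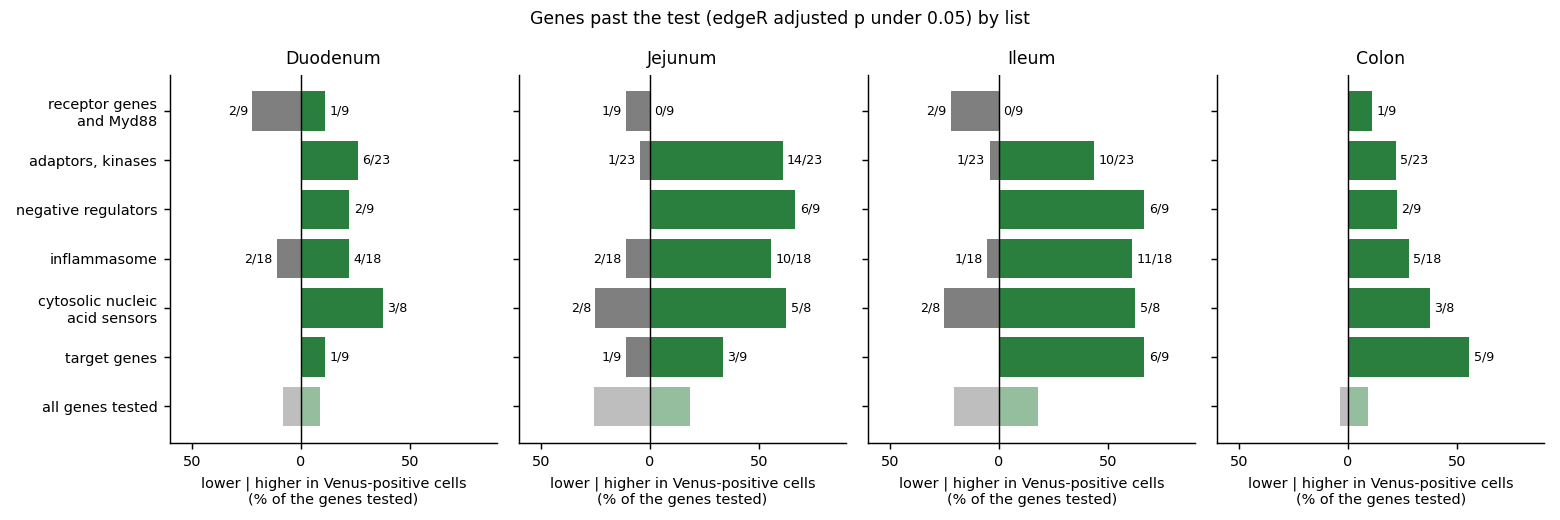
Share of the genes tested in each list (horizontal axis, percent) that were higher (green, to the right) or lower (grey, to the left) in Venus-positive cells by edgeR at an adjusted p under 0.05, by region, with the counts beside the bars and the share over all 15044 genes in pale colours at the bottom. The bars of the adaptor, regulator, inflammasome and nucleic acid sensor lists point mainly to the right, while those of the receptor genes and *Myd88* hold at most 2 genes on either side.

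The genes whose profile over the 8 group means was most like that of *Tlr1* were *Cep131*, *Ssbp2* and *Acacb*, by the root mean square difference of centred log2 CPM (0.55, 0.57 and 0.58, where the range of the *Tlr1* profile was 5.92). Those most like *Tlr3* were *Slc6a6*, *Ikbke* and *Anks1* (0.18, 0.20 and 0.21, for a range of 2.02). Likeness was ranked over protein-coding genes tested and over 8 points that share libraries.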

How the data were processed

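Sorted cells of Guca2a-Venus mice were sequenced as single-end reads from a stranded total RNA kit. The submitters' processing notes name CASAVA, STAR 2.5.1 and GRCm38, and the authors deposited raw counts per gene without normalisation. Which annotation and strand setting they used is not given in the sources used here. Gene names came from GENCODE M21, which held 53274 of 53465 genes. Rows for unmapped, multimapping, ambiguous and no-feature reads, 39.4% to 75.8% of the reads of a library, were left out of library sizes and tests. Groups came from the labels.

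Tests were run in edgeR 4.0.16 (R 4.3.3). Low genes were removed by filterByExpr with a minimum count of 10 and a minimum total of 15, and the rest were normalised by TMM and fitted with 1 coefficient per group over 24 libraries (common dispersion 0.185), and quasi-likelihood p-values were adjusted by the Benjamini-Hochberg method over 15044 genes, with a threshold of 0.05. The 95% intervals used the fit's own degrees of freedom. With 3 libraries a group, depth and spread limit the precision of the rarer receptors most. The script was tested on simulated data.

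The genes and lists were chosen with earlier results of these data known. All 10 members are named. Of every other list, at most 4 genes past the threshold with the smallest adjusted p in a comparison could be named, and genes under 3 counts in every library, and a gene so named is given in each region where it differed between the sorts; for members called in at least 2 of the 4 regions, the 3 most alike protein-coding genes (centred log2 CPM, prior count 2) are named. *Naip1*, *Naip2* and *Naip6* as genes similar to *Naip5*, *Tlr6* and *Cxcl1* and *Lcn2* as untested, and *Adgre1* and the other markers were named outside this rule. So was *Irak1*, as the gene called lower in its list. Of 171 list names, 169 were in the table. Alternatives were DESeq2 1.42.0, RLE factors, library size alone, no filter, a minimum of 10 counts per library, nuclear protein-coding genes alone, a term for the i5 index, the compared libraries alone, a threshold of 0.01, and leaving out each library. Bounds were also computed without each library of the higher group, an alternative chosen after seeing the data.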

Additional observations from a re-analysis of the deposited data

Results flagged for a closer look

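The difference between Venus-positive and Venus-negative cells varied with region for 2 of the 9 genes tested, beside 17.5% of all genes, a share from which 2 of 9 was not set apart. For *Tlr1* the joint interaction test over the 4 regions gave an edgeR adjusted p of 0.0022, and the sort difference was higher in the colon than in the mean of the small intestinal regions by 4.06 on the log2 scale, with the positive libraries below all negative ones in the duodenum, jejunum and ileum and above them in the colon. For *Tlr2* the joint test gave an edgeR adjusted p of 0.0267 and the difference was 4.13 on the log2 scale, with the positive libraries below all negative ones in the ileum and above them in the colon. The call of this *Tlr2* difference was lost without colon positive replicate 1 or 2 (edgeR adjusted p = 0.0577 and 0.0628). It was also lost without colon negative replicate 1 or 2 (0.0566 and 0.0614). Some small intestinal groups of both genes were at or under 3 counts, so these fitted values depend on the prior count. Within the colon alone the difference between the sorts passed for neither gene. The log2 fold change was 0.86 for *Tlr1* (95% interval -0.40 to 2.12, edgeR adjusted p = 0.399) and 1.81 for *Tlr2* (0.18 to 3.43, adjusted p = 0.137). In the same colon interaction 6 of 7 goblet and 5 of 6 Paneth cell markers were called lower and 3 of 7 endocrine and tuft cell markers higher. Stromal markers summed higher in negative cells of every region, with *Vim* the highest of them by its mean over the 24 libraries. Of 6 tested, 1, 1, 4 and 0 were called lower in positive cells from duodenum to colon. The part of these cells was not tested. The mitochondrial share of reads was lower in positive cells of the small intestine and overlapped between the sorts in the colon, and its part was not tested.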

How the results depend on the processing

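Over 401 fold changes of the members recomputed under the other settings, 365 kept their direction and side of the threshold, 19 lost and 15 gained the call, and 2 changed sign without a call: with library size alone *Nod1* in the duodenum was 0.04 and *Myd88* 0.23. Over 1200 with 1 library left out, 1136 were kept, 44 lost and 16 gained the call. Genes of the other lists are not in these counts. Those that changed sign had a range over the left-out libraries of -0.20 to 5.38 for *Tlr4* in the jejunum, -1.83 to 1.0 for *Tlr5* in the ileum and -0.50 to 1.82 for *Nod2* in the colon. Library size alone shifted the median of all genes by 0.43 in the duodenum, 0.30 in the jejunum and -0.38 for positive cells of the colon against the small intestine.

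The number of members called between the sorts was 1 in the duodenum with library size alone, where *Tlr1* and *Nlrp6* were lost, and 0 at an adjusted p of 0.01, with 0 to 4 when a library was left out. In the jejunum it was 2 with DESeq2 or library size alone, *Tlr3* being gained, 0 with the compared libraries alone, where *Tlr1* did not pass the filter, and 1 to 2 by library left out. The ileum had 3 in 4 settings (DESeq2, library size alone, protein-coding genes and i5 index, each with *Nod1*) and with the compared libraries alone (with *Myd88*), 0 at 0.01, and 0 to 4 by library left out. The colon had 0 with library size alone, no filter or 0.01, 1 with the compared libraries alone (*Tlr2* in place of *Tlr3*), and 0 to 1 by library left out. For the interaction over regions it was 1 with library size alone or 0.01, and 1 to 3, and for colon against small intestine 1 at 0.01 and 1 to 3. The duodenum against jejunum and ileum gave 0 to 1. Negative cells over 4 regions gave 5 with DESeq2, 4 with library size alone or no filter, 2 with the compared libraries alone, and 1 to 2 by library left out, and for colon against small intestine 1 at 0.01, 2 to 4 by library left out, and 4, with *Nod1*, in 5 settings (DESeq2, RLE, no filter, protein-coding genes and compared libraries alone). Requiring 10 counts in every library left 2 members in the test, *Nlrp6* and *Myd88*, with 1 called in the duodenum, 1 in the ileum (*Nlrp6* in both) and 0 in each other comparison. Other causes of these changes were not tested. The calls of *Tlr1* and *Tlr2* in positive cells of the colon against the small intestine were kept in every setting that tested them. Receptors under about 10 counts per library could show only large differences. No paired analysis was run, because the labels do not name the mouse and replicate numbers were given in accession order. The share of reads left out as not counted on 1 gene was highest in replicate 3 of every group. A block on the replicate number was not run, so its effect on the calls is not known.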
